A study of Mus musculus with 9 samples.

Results

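Of the 55401 genes in the count table, 9 are described here as epicardial and mesothelial genes: Wt1, Tbx18, Msln, Upk3b, Upk1b, Lrrn4, Krt8, Krt18 and Krt19. They were matched by symbol to the Ensembl identifiers of the table, and all 9 were among the 19091 genes with enough counts to be tested. They were selected on their counts in a single heart library, titled KKA_186 and labelled Kmo_AngII replicate 3, where most of them were high. Their levels in that library are therefore a description and carry no test.

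The study sequenced poly(A) RNA of C57BL/6 mouse hearts, C57BL/6 being an inbred laboratory strain, in 9 libraries that form 3 groups of 3. The Kmo_AngII group received angiotensin II, which constricts vessels and raises blood pressure, under a further condition written as Kmo that the labels leave unexplained. The AngII group received angiotensin II without that condition, and the Ctrl group received PBS, a salt buffer. Age, sex, dose and duration are not analysed here. Nothing in the labels ties the libraries of a group to separate animals, so p-values measure only how these samples spread, and part of that spread may be technical. The titles carry unexplained letters: KKA on the 3 Kmo_AngII libraries, WA on AngII replicate 3 and Ctrl replicates 2 and 3, and WC on AngII replicates 1 and 2 and Ctrl replicate 1. Libraries held 56827533 to 73194268 counts. Besides Kmo_AngII replicate 3, which stood apart in the genes described here, AngII replicate 1 and Ctrl replicate 3 stood apart by genes of lung epithelium. The 6 lung markers summed to 9.37 CPM in AngII replicate 1 and 11.4 CPM in Ctrl replicate 3, against 3.14 CPM in Kmo_AngII replicate 3 and 0.358 to 1.75 CPM in the other 6 libraries (CPM, counts scaled to library size with TMM factors).

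The epicardium is the mesothelial sheet that covers the outer surface of the heart. Mesothelium also lines the pleura around the lungs, the pericardial sac and the peritoneum, and its cells carry both epithelial keratins and a set of surface glycoproteins. In the embryo, epicardial cells that express Wt1 and Tbx18 give rise to fibroblasts and mural cells of the heart, and in the adult the sheet is largely quiescent until injury. In bulk tissue RNA, fewer cells of a type and less RNA per cell cannot be told apart.

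Promoter sequences from RefSeq (build GRCm38.p6) were at hand for 5 of the 9 genes: Upk3b, Lrrn4, Tbx18, Krt8 and Krt18. Each window holds 250 bases before the annotated start and 50 after it. 4 motifs were searched on both strands and are set in capitals: TATAAA (the TATA box), CCAAT (the CCAAT box), GGGCGG (the GC box) and GGAATG (the core bound by TEAD factors). The windows of 3 genes that stood together in 1 library (Upk3b, Lrrn4 and Krt8) are shown beside that of Tbx18, which differed from them in its pattern; each is written 5′ to 3′ along the gene. Upk3b lies at chr5:136038246-136038545 (+ strand), Lrrn4 at chr2:132880813-132881112 (- strand), Krt8 at chr15:102004293-102004592 (- strand) and Tbx18 at chr9:87731211-87731510 (- strand).
Upk3b: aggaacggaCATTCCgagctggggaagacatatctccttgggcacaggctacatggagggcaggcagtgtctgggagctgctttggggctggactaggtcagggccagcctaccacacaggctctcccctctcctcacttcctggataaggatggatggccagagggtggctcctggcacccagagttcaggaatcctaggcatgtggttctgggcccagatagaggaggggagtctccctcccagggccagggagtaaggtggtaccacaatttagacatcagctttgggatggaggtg
Lrrn4: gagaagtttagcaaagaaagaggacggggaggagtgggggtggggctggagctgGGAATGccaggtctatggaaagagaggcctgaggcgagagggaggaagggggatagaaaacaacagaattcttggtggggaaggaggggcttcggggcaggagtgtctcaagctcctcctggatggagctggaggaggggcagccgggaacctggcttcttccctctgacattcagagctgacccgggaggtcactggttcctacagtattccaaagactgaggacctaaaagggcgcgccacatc
Krt8: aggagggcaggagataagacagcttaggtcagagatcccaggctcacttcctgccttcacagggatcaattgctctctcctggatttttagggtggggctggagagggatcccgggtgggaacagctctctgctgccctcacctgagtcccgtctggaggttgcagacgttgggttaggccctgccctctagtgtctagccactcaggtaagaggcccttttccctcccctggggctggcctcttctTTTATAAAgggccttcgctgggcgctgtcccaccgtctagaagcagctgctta
Tbx18: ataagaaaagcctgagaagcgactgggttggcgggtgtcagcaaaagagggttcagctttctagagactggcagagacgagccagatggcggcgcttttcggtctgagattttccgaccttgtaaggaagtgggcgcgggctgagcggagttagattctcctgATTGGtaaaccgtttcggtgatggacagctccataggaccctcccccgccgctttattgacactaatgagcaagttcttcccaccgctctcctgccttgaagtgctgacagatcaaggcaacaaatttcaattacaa
Upk3b and Lrrn4 each held GGAATG once, starting at base -241 (on the other strand) and base -196 from the annotated start, where 14.7% of 32851 mouse promoters hold it. Krt8 held TATAAA once on each strand, in overlapping copies at bases -3 and -1, a motif found in 13.6% of promoters. Tbx18 held CCAAT once on the other strand, at base -87, which 37.4% of promoters do. None of the 5 windows held GGGCGG (35.7% of promoters), and Krt18 held none of the 4 motifs. These are matches of letters only.

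The 4 surface proteins of mesothelium set Kmo_AngII replicate 3 apart. In that library Msln, Upk3b, Upk1b and Lrrn4 were between 8.30 and 11.6 times as high as in the highest of the other 8 libraries, and the other 2 Kmo_AngII libraries were among the 3 lowest of all 9 for each of them.

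Msln (ENSMUSG00000063011, chromosome 17) encodes mesothelin, a glycoprotein anchored to the surface of mesothelial cells. It had 0.0956, 0.259 and 28.1 CPM in Kmo_AngII replicates 1 to 3, 1.72, 0.624 and 0.792 CPM in AngII replicates 1 to 3, and 0.691, 0.239 and 2.41 CPM in Ctrl replicates 1 to 3. Kmo_AngII replicate 3 was 11.6-fold above the next library, Ctrl replicate 3 (95% exact counting interval 9.77 to 14). Intervals here cover counting error only and take each deposited count as a separate read. The AngII and Ctrl libraries overlapped, and the group means were 9.48 ± 16.1 CPM in Kmo_AngII, 1.05 ± 0.590 CPM in AngII and 1.11 ± 1.15 CPM in Ctrl (SD, n = 3 each).

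Upk3b (ENSMUSG00000042985, chromosome 5) belongs to the uroplakins, membrane proteins first known from the bladder lining, and is itself a marker of mesothelium. Its levels were 0.0956, 0.107 and 23.0 CPM in Kmo_AngII replicates 1 to 3, 0.589, 0.312 and 1.31 CPM in the AngII libraries and 0.833, 0.358 and 2.28 CPM in the Ctrl libraries. Kmo_AngII replicates 1 and 2, with 8 and 7 counts, were the lowest of the 9 libraries, below all 6 AngII and Ctrl libraries. Replicate 3 held 1167 counts and 79.7% of the summed CPM of the gene.

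Upk1b (ENSMUSG00000049436, chromosome 16) encodes a tetraspanin of the uroplakin group. It had no count in Kmo_AngII replicates 1 and 2 and 433 counts (8.54 CPM) in replicate 3. AngII libraries had 0.224, 0.0595 and 0.260 CPM, and Ctrl libraries had 0.266, 0 and 0.747 CPM. A count of 0 allows up to 0.0358 CPM in Kmo_AngII replicate 1, 0.0458 CPM in Kmo_AngII replicate 2 and 0.0716 CPM in Ctrl replicate 2. The fold of Kmo_AngII replicate 3 over the next library, Ctrl replicate 3, was 11.4 (8.35 to 16.0).

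Lrrn4 (ENSMUSG00000043110, chromosome 2), a membrane protein with leucine-rich repeats, showed the same order of libraries at the top. It had 0.0478, 0 and 7.06 CPM in Kmo_AngII replicates 1 to 3, 0.141, 0.0595 and 0.359 CPM in AngII and 0.283, 0 and 0.851 CPM in Ctrl. Ctrl replicate 3 came next after Kmo_AngII replicate 3, which was 8.30-fold above it (6.15 to 11.4).

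The keratins of simple epithelia followed, with Krt8 and Krt18, the type II and type I keratins that pair into filaments, more alike than Krt19. Krt8 (ENSMUSG00000049382, chromosome 15) had 0, 0 and 5.21 CPM in Kmo_AngII replicates 1 to 3, 0, 0.149 and 0.173 CPM in AngII replicates 1 to 3, and 0.142, 0.119 and 0.417 CPM in Ctrl replicates 1 to 3. Krt18 (ENSMUSG00000023043, chromosome 15) had 0.442, 0.168 and 4.58 CPM in Kmo_AngII, 0.318, 0.401 and 0.322 CPM in AngII and 0.549, 0.405 and 0.365 CPM in Ctrl. Kmo_AngII replicate 3 stood 12.5-fold (8.22 to 19.9) and 8.34-fold (5.71 to 12.6) above the next library for Krt8 and Krt18. Outside that library Krt18 lay between 0.168 and 0.549 CPM, while Krt8 had at most 24 counts. A processed Krt8 copy, Krt8-ps, had at most 4 counts in a library, and reads that such copies share with Krt8 could have been split by the counting.

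Krt19 (ENSMUSG00000020911, chromosome 11), a small type I keratin of simple epithelia, had 0.108, 0.229 and 8.15 CPM in Kmo_AngII replicates 1 to 3. It had 3.89, 0.431 and 0.0866 CPM in AngII and 1.61, 0 and 0.868 CPM in Ctrl. AngII replicate 1 was thus the second highest library, and Kmo_AngII replicate 3 was 2.10-fold above it (1.81 to 2.43). Within AngII the spread (1.47 ± 2.10 CPM, SD, n = 3) exceeded the difference of its mean from that of Ctrl (0.827 ± 0.807 CPM, n = 3).

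Both transcription factors behaved differently from the other 7 genes. Wt1 (ENSMUSG00000016458, chromosome 2), a zinc finger factor of the epicardium that is also made by some endothelial cells, had 3.78, 6.16 and 11.2 CPM in Kmo_AngII replicates 1 to 3, 11.95, 14.4 and 5.59 CPM in AngII and 12.4, 8.04 and 4.34 CPM in Ctrl. Kmo_AngII replicate 3 was only in place 4 of 9 for it, at 0.779 of the level of AngII replicate 2. Tbx18 (ENSMUSG00000032419, chromosome 9), a T-box factor of the epicardium and of the pacemaker region, had 3.49, 3.87 and 8.07 CPM in Kmo_AngII, 5.32, 3.08 and 4.17 CPM in AngII and 5.32, 3.51 and 3.40 CPM in Ctrl. Its gap in Kmo_AngII replicate 3 was 1.52-fold (1.32 to 1.74) with TMM scaling, but with library size as the only scaling that library fell below AngII replicate 1 by 0.18 on the log2 scale. Group means of Tbx18 were 5.14 ± 2.54 CPM in Kmo_AngII, 4.19 ± 1.12 CPM in AngII and 4.08 ± 1.08 CPM in Ctrl (SD, n = 3 each), and those of Wt1 were 7.06 ± 3.81, 10.7 ± 4.55 and 8.26 ± 4.03 CPM in the same order, so that the group means of either gene differed by less than the spread.

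**Figure D1:**
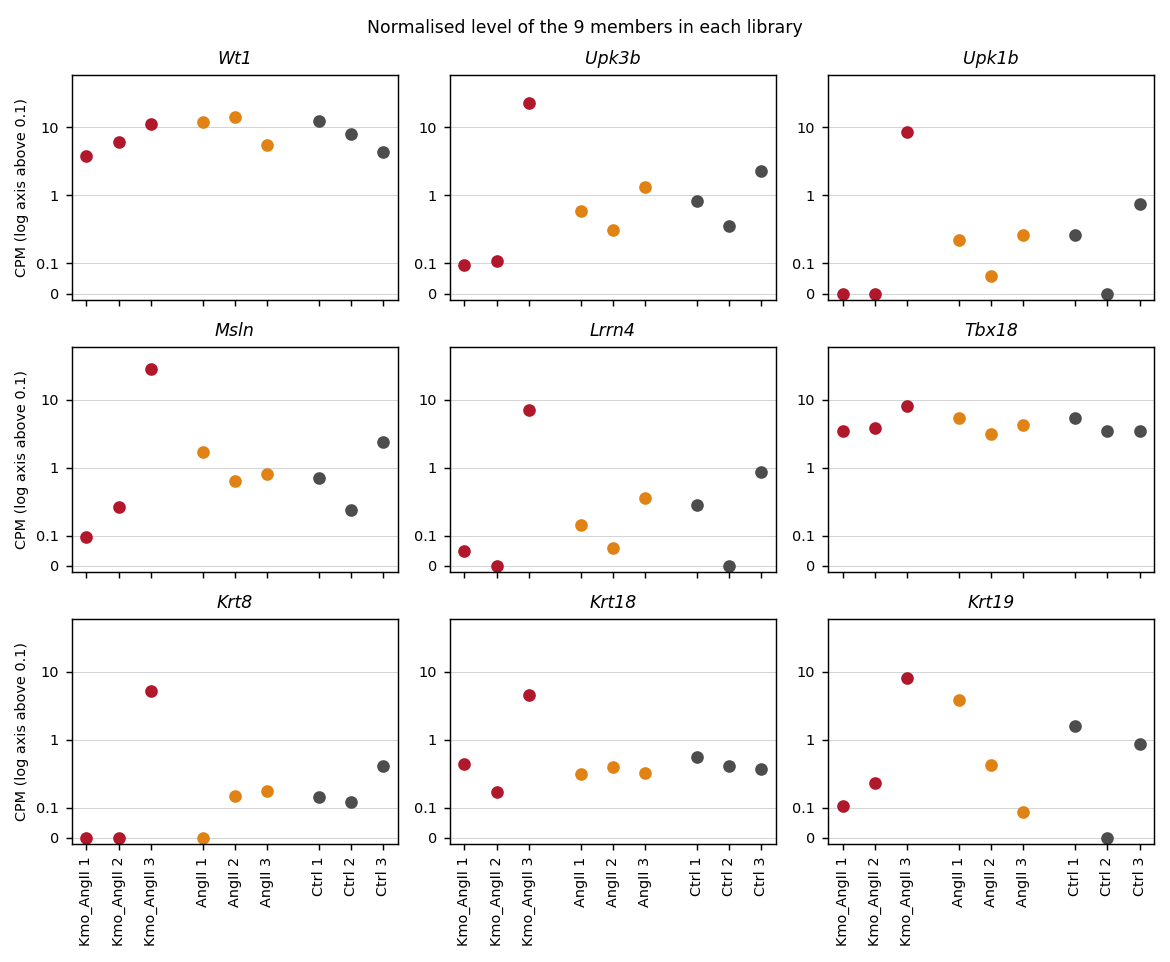
CPM of each of the 9 genes in each library, with Kmo_AngII in red, AngII in orange and Ctrl in grey; the axis is logarithmic above 0.1 CPM and linear below it. Kmo_AngII replicate 3 is the highest library for 8 of the 9 genes, and Wt1 is the exception.

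Taken over the whole table, 3744 of 19091 genes (19.6%) were highest in Kmo_AngII replicate 3, and 8 of the 9 genes were among them. At least 2-fold above the highest of the other 8 libraries, on the log2 CPM scale with a prior count of 2, were 2.47% of genes and 7 of the 9. At least 4-fold above were 0.445% of genes and 6 of the 9: Upk3b, Upk1b, Msln, Lrrn4, Krt8 and Krt18. Since the genes were chosen for that library, nothing is read from these counts. Ranked by this gap, Krt8, Msln, Upk1b, Upk3b, Lrrn4 and Krt18 took places 6, 7, 8, 11, 22 and 25 of all genes tested, Krt19 took place 426, Tbx18 1014 and Wt1 7746. On that scale Krt18 (2.99) and Lrrn4 (3.01) were the lowest of the 6 past 4-fold, and Krt19 (1.06) the nearest below it.

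**Figure D2:**
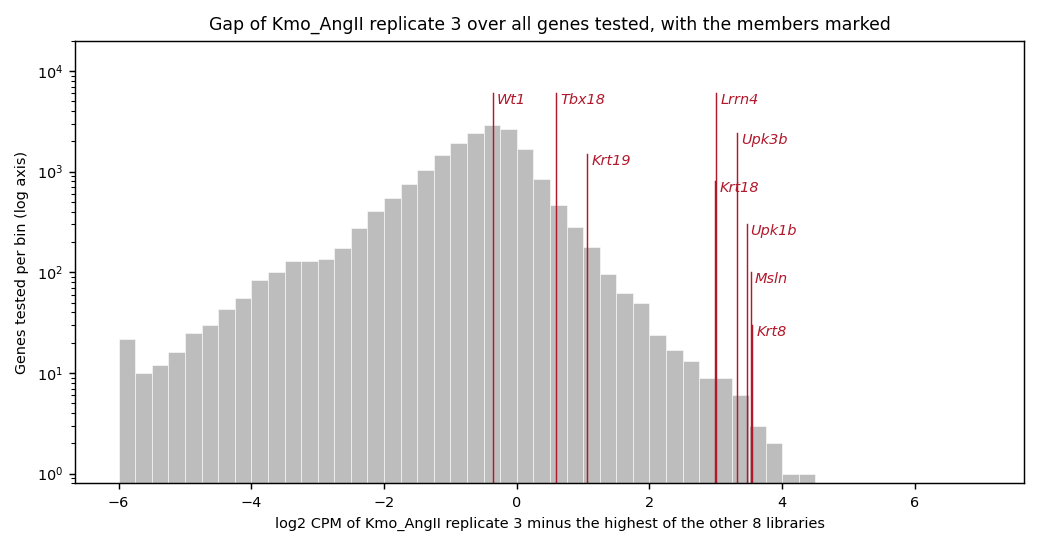
Number of tested genes (log axis) by the log2 CPM of Kmo_AngII replicate 3 minus the highest of the other 8 libraries, with the 9 genes as red lines. Wt1, Tbx18 and Krt19 lie at -0.36, 0.60 and 1.06, and the other 6 lie between 2.99 and 3.55.

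Compared per kilobase of exon, the order of the 9 genes also differed between that library and the rest. In Kmo_AngII replicate 3, Msln came first with 9.17 CPM per kilobase, before Upk3b with 6.52, Krt19 with 4.39 and Upk1b with 4.09 CPM per kilobase. Krt18, Krt8 and Lrrn4 followed with 3.19, 2.66 and 1.90 CPM per kilobase, and Wt1 (1.81) and Tbx18 (1.71) were the last. In the other 8 libraries Wt1 had a median of 1.15 CPM per kilobase (0.609 to 2.33) and came first in 5 of 8 and second in 2. Tbx18 had a median of 0.782 (0.652 to 1.13), first in 1 library and second in 6. Msln was first in 1 library and Krt19 in 1.

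Without Kmo_AngII replicate 3, the highest of the remaining 8 libraries was Ctrl replicate 3 for Upk3b, Upk1b, Msln, Lrrn4 and Krt8. It was the highest for 14.8% of all genes tested. AngII replicate 1 was highest for Tbx18 and Krt19, AngII replicate 2 for Wt1 and Ctrl replicate 1 for Krt18. Ctrl replicate 3 and AngII replicate 1 were also the libraries with the highest lung marker sums. Sftpc, the surfactant gene of alveolar type II cells, had 254 counts in AngII replicate 1, 242 in Ctrl replicate 3 and 4 in Kmo_AngII replicate 3. Scgb1a1, a gene of airway club cells, had 206, 253 and 77 counts in the same libraries and at most 4 elsewhere. The part of lung tissue in the members' levels was not tested.

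The comparison of Kmo_AngII with AngII sets the Kmo condition against its absence under angiotensin II, and it turned on whether replicate 3 was included. Only the 3 Kmo_AngII libraries were titled KKA, so a Kmo difference cannot be told apart from one that goes with those letters. With all 9 libraries, 8 of the 9 genes had a positive log2 difference for Kmo_AngII minus AngII (median 3.17; median of all genes tested 0.03), from 0.29 ± 0.38 (SE) for Tbx18 to 4.0 ± 2.04 for Krt8, and Wt1 had -0.60 ± 0.50. The edgeR quasi-likelihood test called 0 of 19091 genes (0%) at an adjusted p under 0.05, and 412 had an unadjusted p under 0.05. Kmo_AngII minus Ctrl, which shares the Kmo_AngII libraries, had the same 8 genes positive (median 2.61; all genes 0.05), with 0% of genes called and 533 at an unadjusted p under 0.05. On leaving out 1 library the 412 ran from 295 (without AngII replicate 1) to 973 (without Kmo_AngII replicate 1), with 761 without Kmo_AngII replicate 2. The 533 ran from 314 (without Ctrl replicate 2) to 1820 (without Kmo_AngII replicate 1), with 1280 without Ctrl replicate 1. With library size as the only scaling they were 640 and 1191. DESeq2 called 3 genes for Kmo_AngII minus AngII and 9 for Kmo_AngII minus Ctrl, and limma-voom called 0 for each. These values use the library that chose the genes and are a description. Limma-voom gave 2 of the 9 positive with a median of -0.53 for Kmo_AngII minus AngII, and 3 positive with a median of -0.32 for Kmo_AngII minus Ctrl. The 3 Kmo_AngII libraries overlapped with AngII and with Ctrl for all 9 genes. Without overlap, 3.22% of all genes were higher and 2.94% lower in Kmo_AngII than in AngII, and 4.13% were higher and 2.64% lower than in Ctrl.

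Without replicate 3, all 9 genes had negative log2 differences against both groups. For Kmo_AngII minus AngII, Upk3b had -2.85 ± 0.94 (SE; unadjusted p = 0.0138) and Msln had -2.57 ± 1.0 (unadjusted p = 0.0290) in the edgeR fit. Upk1b and Krt8 also had an unadjusted edgeR p under 0.05 (0.0263 and 0.0399). Both had no count in the remaining Kmo_AngII libraries. Against the floor of 3 counts per library they were at least 3.96-fold and at least 2.35-fold lower than the AngII mean. These bounds take that mean as exact, though it rests on 4 to 21 counts per library for Upk1b and 0 to 14 for Krt8. No gene was called, since the edgeR adjusted p of all 9 genes was 1, and 0% of 19809 genes were called against 1.84% at an unadjusted p under 0.05. The median of the 9 was -2.81 as fitted and -1.98 with the bounds of Upk1b and Krt8 in place of their fitted values.

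For Kmo_AngII minus Ctrl without replicate 3, the same 4 genes had an unadjusted edgeR p under 0.05, against 2.78% of all genes. Upk3b had -3.5 ± 0.96 (SE; unadjusted p = 0.00523) and Msln -2.67 ± 1.0 (unadjusted p = 0.0252), while Upk1b was at least 7.38-fold and Krt8 at least 4.94-fold lower than the Ctrl mean. The edgeR adjusted p was again 1 for each of the 9 genes, and the median was -2.67 as fitted and -2.31 with the bounds. Library by library, Kmo_AngII replicates 1 and 2 lay below all 3 AngII libraries for Upk3b, Upk1b, Msln and Lrrn4, as did 7.12% of all genes. They lay below all 3 Ctrl libraries for Upk3b and Krt8, as did 7.21% of genes, and below all 6 libraries for Upk3b, as did 1.74%. None of the 9 lay above AngII, above Ctrl or above all 6 in both replicates, where 6.72%, 8.65% and 1.94% of all genes did. The differences closest to 0 were those of Tbx18 and Krt18, at -0.19 ± 0.33 and -0.18 ± 0.62 for Kmo_AngII minus AngII. The bounds against Ctrl take its mean as exact, though it rests on 0 to 43 counts per library for Upk1b and 5 to 24 for Krt8. The differences against AngII and against Ctrl share the 2 Kmo_AngII libraries, so they are not separate evidence.

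**Figure D3:**
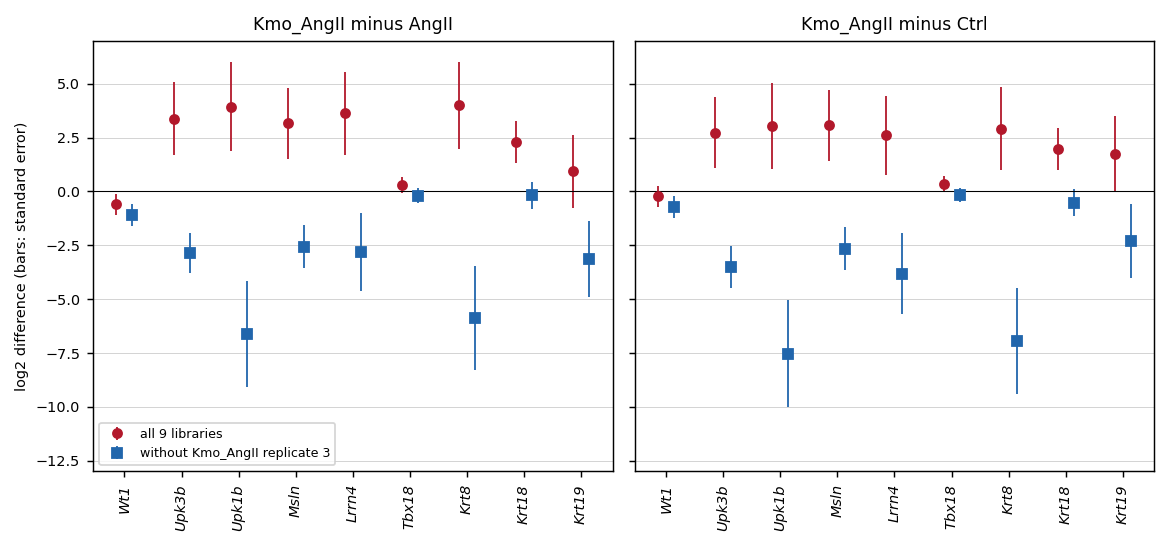
Fitted log2 difference of each of the 9 genes for Kmo_AngII minus AngII (left) and Kmo_AngII minus Ctrl (right), with all 9 libraries (red circles) and without Kmo_AngII replicate 3 (blue squares); bars are standard errors. All 9 blue values lie below 0 in both panels, and those of Upk1b and Krt8 depend on the prior count, since both had no count in the Kmo_AngII libraries that remain.

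Kmo_AngII replicate 3 also held more of most other epicardial and mesothelial genes. Of 20 such genes, 16 were tested, and 14 of these 16 were highest in Kmo_AngII replicate 3, 12 of them at least 2-fold above the next library. Of all genes tested, 19.6% were highest there and 2.47% at least 2-fold above the next library. Muc16, the large mesothelial mucin known as CA125, had 660 counts there and at most 70 elsewhere. Anxa8, an annexin, had 371 against at most 26 counts, Pkhd1l1, a large membrane protein related to fibrocystin, 1690 against at most 246, and Gpm6a, a membrane glycoprotein, 1012 against at most 157. Bnc1, a zinc finger factor of mesothelium, had 91 counts against at most 19. Dmkn, a secreted epithelial protein with too few counts over the libraries to be tested, had 216 counts against at most 13. Among the others not tested, Mpzl2 had 13 counts there against at most 5, but Calb2 had 0 against at most 7 and Cdh1 had 8 against at most 11. Cldn15, a tight junction protein, and Bnc2, the paralogue of Bnc1, were not highest there. The summed level of the 20 genes was 733 CPM in Kmo_AngII replicate 3 and 97.6 to 256 CPM in the other 8 libraries. Most of it was C3, a complement component made by many cells, with 539 CPM there and 53.1 to 217 CPM in the other 8.

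Among relatives of the members, 2 further keratins were high in that library and the other uroplakins were not. Of the other uroplakins, Upk1a had 51 counts in Kmo_AngII replicate 3 and 36 to 109 counts elsewhere, Upk3a and Upk3bl had no count in any library, and Upk2 had at most 8. Among 6 further keratins, Krt7, which is made by simple epithelia and mesothelium, had 203 counts in Kmo_AngII replicate 3 and at most 41 elsewhere. Krt14, a keratin of the basal epidermal layer that some mesothelial cells also make, had 252 counts there and at most 3 elsewhere, too few over the libraries to be tested, and Krt5, its usual partner, had none in any library. The epithelial adhesion gene Epcam had no count in Kmo_AngII replicate 3 and at most 8 elsewhere.

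Genes of other cell types moved with the 9 genes in that library. Of 8 fibroblast genes, 7 were highest in Kmo_AngII replicate 3 and 6 at least 2-fold above the next library, with a sum of 2033 CPM there and 498 to 900 CPM in the other 8. Atrial muscle genes summed to 2285 CPM, against 50.0 to 1226 CPM, with Myl7, the atrial light chain, at 469 CPM against at most 47.7 CPM. Of 7 adipocyte genes, 5 were tested and 4 of them were highest there, such as Adipoq (adiponectin) at 2.94 CPM against at most 0.405 CPM. The adipocyte sum was nevertheless the lowest (638 CPM against 717 to 1460 CPM), with Fabp4, a fatty acid binding protein that endothelial cells also make, at 609 CPM of it. The 4 Schwann cell genes summed to 27.3 CPM, against 5.61 to 12.9 CPM. None of 8 cardiomyocyte genes was highest there, and their sum was 18631 CPM against 24242 to 49676 CPM. The library also had the largest mitochondrial share of counts, 55.5% against 30.3% to 52.6%. Ctrl replicate 2 was the next highest library for Myl7, with 2000 counts. It had 337 counts of Wt1, 147 of Tbx18, 17 of Krt18, 15 of Upk3b, 10 of Msln and 5 of Krt8. It had no count of Upk1b, Lrrn4 or Krt19. The part of these cell types in the members' levels was not tested.

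**Figure D4:**
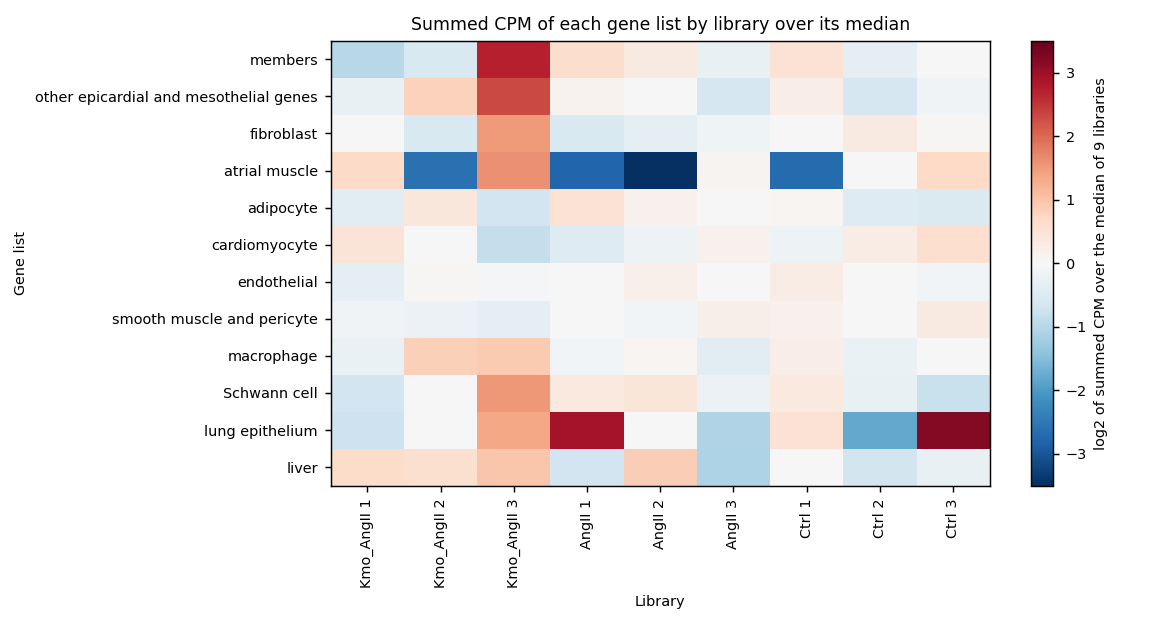
Summed CPM of 12 gene lists (rows) in the 9 libraries (columns), as log2 of the ratio to the median of the 9 libraries (red higher, blue lower). Kmo_AngII replicate 3 is highest for the 9 genes (104 CPM, against 8.05 to 24.2), other epicardial, fibroblast, atrial, macrophage, Schwann cell and liver genes, and AngII replicate 1 and Ctrl replicate 3 for lung genes.

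The effect of angiotensin II without Kmo is the difference of AngII minus Ctrl. Neither group holds the library that chose the genes, although it enters the estimate of spread. No difference was detected for the 9 genes. The edgeR test called 0 of 19091 genes (0%) and none of the 9, whose adjusted p lay between 0.945 and 0.994, and 1003 genes but none of the 9 had an unadjusted p under 0.05. That number was 348 without AngII replicate 1, 437, 482 and 2130 without Ctrl replicates 2, 3 and 1, and 5635 with library size as the only scaling. DESeq2 called 2 genes and limma-voom 0. Wt1, Tbx18 and Krt19 had positive log2 differences and the other 6 negative (median -0.34; all genes 0.02). These directions depended on the libraries and the scaling. Without the 2 libraries with lung genes 5 of the 9 were positive (median 0.21), and 8 of the 9 signs were reversed. Positive were 6 without Ctrl replicate 3 (median 0.30), 5 with library size as the only scaling (0.29, where all genes had 0.67) and 5 with limma-voom (0.04). With the title letters as a covariate 1 was positive (-0.43), and without Kmo_AngII replicate 3 the median was -0.34 again. The errors differed between the genes: Tbx18 had 0.04 ± 0.38 (SE), Wt1 0.37 ± 0.50, Upk3b -0.65 ± 1.58 and Krt8 -1.09 ± 1.96. AngII and Ctrl libraries overlapped for all 9, where 6.44% of all genes lay higher and 5.74% lower in AngII without overlap.

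Within the title letters, Krt8 and Krt18 stayed negative in both sets of libraries, as they were over all libraries. The other 7 genes did not keep their sign over all libraries in both sets. AngII minus Ctrl of mean log2 CPM was positive for 5 genes and negative for 4 among the WA libraries (1 against 2 libraries), and positive for 2 and negative for 7 among the WC libraries (2 against 1). The signs were opposite for 5 genes: Upk3b had 0.50 within WA and -0.91 within WC, Upk1b 0.91 and -0.97, Lrrn4 1.25 and -1.34, Tbx18 0.27 and -0.39, and Wt1 -0.08 and 0.08. Krt8 had -0.34 within WA and -1.22 within WC, and Krt18 -0.24 and -0.58. Krt19 was negative in both (-0.50 and -0.29) and Msln positive in both (0.02 and 0.57), each against its sign over all libraries. A test of the interaction in edgeR called 12 of 18111 genes and none of the 9 (adjusted p 0.99999821 for each).

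WA minus WC sets the 2 sets of title letters against each other in the 6 AngII and Ctrl libraries. Of the 9 genes only Wt1 was called. It had 5.59, 8.04 and 4.34 CPM in the WA libraries (AngII replicate 3 and Ctrl replicates 2 and 3), against 11.95, 14.4 and 12.4 CPM in the WC libraries (AngII replicates 1 and 2 and Ctrl replicate 1). The groups did not overlap, with means of 5.99 ± 1.88 CPM in WA and 12.9 ± 1.31 CPM in WC (SD, n = 3 each). The log2 difference was -1.10 ± 0.24 (SE; edgeR adjusted p = 0.0134), in a fit that called 13.3% of 18111 genes, 5.25% lower and 8.06% higher in WA. Lower in every WA library without overlap were 17.2% of all genes.

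The Wt1 difference was similar within each treatment, at -1.23 among AngII libraries and -1.07 among Ctrl libraries on the log2 CPM scale, with 1 library on 1 side of each. With library size as the only scaling it was -1.46, where the median of all genes was -0.32, and it was no longer called (edgeR adjusted p = 0.0625). The call was also lost without Ctrl replicate 3 (-0.91, edgeR adjusted p = 0.0688), without AngII replicate 2 (-1.0, 0.0853) and without the 2 libraries with lung genes (-0.97, 0.0594). With all 9 libraries in the fit, whose common dispersion was 0.185 against 0.0880 in the fit of 6, it was -1.11 ± 0.37 (SE; edgeR adjusted p = 0.224), and 0% of 19091 genes were called, with 3443 at an unadjusted p under 0.05, 505 called by DESeq2 and 0 by limma-voom. Of the other 8 genes, Upk3b had 1.21 ± 0.60 (edgeR adjusted p = 0.208), Krt19 -2.61 ± 1.40 (0.280) and Tbx18 -0.29 ± 0.27 (0.505). The median of the 9 was 0.19, against -0.01 for all genes tested.

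Among the other epicardial genes, 15 were tested in these 6 libraries and only C3, a complement component made by many cells, was called lower in WA (-0.78 ± 0.22, edgeR adjusted p = 0.0380). Of 4 further T-box genes of the heart, Tbx20 was called higher (1.47 ± 0.22, edgeR adjusted p = 0.00405). Genes of other cell types differed between the letters too. Called higher in WA were 4 of 8 fibroblast genes and 3 of 8 cardiomyocyte genes, and none of either was called lower. Atrial genes summed to 751 to 1226 CPM in WA and 50.0 to 117 CPM in WC, mostly Nppa (603 to 1222 CPM and 48.0 to 114 CPM). Among these 6 libraries Myl7 and Sln were high only in Ctrl replicate 2 (47.7 and 35.0 CPM). In AngII replicate 3 and Ctrl replicate 3, also WA, Myl7 had 0 and 0.399 CPM and Sln had 0 in both. The sums of other lists were lower in WA, as Wt1 was. Schwann cell genes summed to 5.61 to 8.39 CPM in WA and 12.1 to 12.9 CPM in WC. Adipocyte genes summed to 717 to 1018 CPM in WA and 1077 to 1460 CPM in WC, with none of either list called. Nearly all of the adipocyte sum was Fabp4 (716 to 1018 CPM in WA and 1076 to 1458 CPM in WC). Of the 5 adipocyte genes tested, 4 had a positive log2 difference (median 0.99), so most of that list went the other way. The other epicardial and mesothelial genes summed to 97.6 to 136 CPM in WA and 147 to 172 CPM in WC. Most of these sums was C3, with 53.1 to 91.4 CPM in WA and 108 to 124 CPM in WC. Of the 15 such genes tested, 6 had a positive log2 difference (median -0.14). Csf1r, the receptor of a macrophage growth factor, was called lower (-0.57 ± 0.16, edgeR adjusted p = 0.0391). So was Ager, a receptor of alveolar type I cells (-1.73 ± 0.44, edgeR adjusted p = 0.0249). Their lists were mixed: 2 of 5 macrophage genes had a positive log2 difference (median -0.14). Ager was the only 1 of 6 lung genes tested in these libraries. With all 9 libraries in the fit, 2 of 3 lung genes were positive (median 0.84). The highest lung sum was in a WA library, Ctrl replicate 3 (11.4 CPM). Of 5 endothelial genes, a cell type that can also express Wt1, 0 were called, and they summed to 623 to 675 CPM in WA and 668 to 797 CPM in WC. The part of these in the Wt1 difference was not tested.

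**Figure D5:**
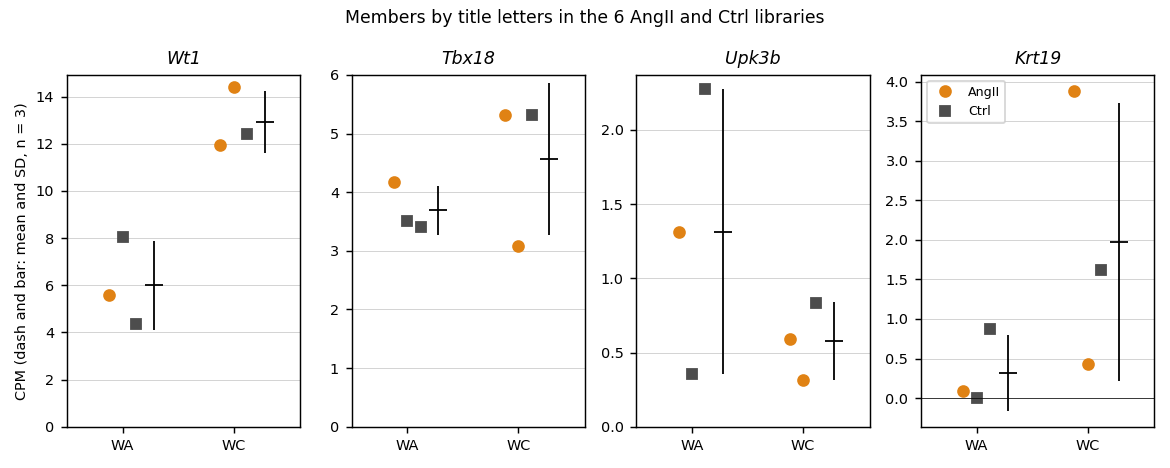
CPM of Wt1, Tbx18, Upk3b and Krt19 in the 3 WA and 3 WC libraries, with AngII as orange circles and Ctrl as grey squares; the dash and bar are the mean and SD (n = 3). The Wt1 values of WA, at most 8.04 CPM, all lie below those of WC, at least 11.95 CPM, and the other 3 genes overlap.

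The genes most like the 9 in their pattern were sought by Pearson correlation with the mean standardised log2 CPM of the 9, among 11176 genes with a mean log2 CPM of at least 1. Over all 9 libraries the highest were Mrvi1 (r = 0.970), Mmrn1 (0.962), Adamtsl1 (0.949), Ccdc3 (0.947), Golga7 (0.946), Pkhd1l1 (0.946), Castor1 (0.946), Efemp1 (0.943), Klf13 (0.938) and Col18a1 (0.937). Kmo_AngII replicate 3 was the highest library for each of these 10. The 9 genes were chosen for that library, so it weighs heavily in their mean and nothing is read from this. Mmrn1, for example, had 17.8 CPM there and 5.30 to 11.3 CPM in the other 8. Among the members the correlation with their own mean, which contains each of them, ran from 0.465 for Wt1 to 0.963 for Msln.

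Over the 8 libraries without Kmo_AngII replicate 3 the highest correlations were those of Mcmbp (0.964), Acvr2a (0.913), Jdp2 (0.896), Tpst2 (0.896), Mrvi1 (0.895), Rerg (0.887), Castor1 (0.872), Samd12 (0.872), Mmrn1 (0.866) and Fbln2 (0.855). Mrvi1, Castor1 and Mmrn1 were in both lists. Mcmbp varied little, between 15.3 and 19.9 CPM over these 8 libraries. The points of each correlation share the library scaling, and with 9 or 8 points and 11176 genes some high values arise without any link.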

How the data were processed

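Poly(A) RNA of 9 mouse heart libraries was sequenced as paired ends, per the labels' protocols, which also mention an adipose type although the source is given as heart. The authors deposited whole-number counts per Ensembl gene, with 1 column per library and no scaling. Bowtie 0.12.2, HISAT2 2.0, StringTie 1.3.0 and the build mm8 are named without roles per the submitters' processing notes. The counting step is not given in the sources used here, nor is its use of strand, so reads of overlapping antisense genes cannot be told apart. For the same reason it is not known whether each count is a separate read. The intervals and the bounds from the floor of 3 counts assume that, and may be too narrow. Tbx18 overlaps a gene model with 45 counts in all, and Krt8 a model with 0.

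Groups followed the description label (Kmo_AngII, AngII, Ctrl), and a second grouping the title letters. Replicate numbers follow the sample order and pair nothing. The 9 genes, the gene lists and the tests were chosen with earlier results of these data known. The test was that of edgeR 4.0.16 under R 4.3.3 (quasi-likelihood F test, robust dispersion, TMM, filterByExpr, Benjamini-Hochberg over all genes tested), in 1 fit of 9 libraries and for WA minus WC also in the 6 libraries concerned. The SE of a log2 difference was derived from its F statistic. Symbols matched 55141 of 55401 identifiers. Exon lengths came from the GENCODE annotation of GRCm38. Python 3.11.15 with pandas 2.3.3 and scipy 1.17.1 gave levels and intervals. Between any libraries the chi-square per degree of freedom was at least 60.8, so none agreed within counting noise. The fit was tested on simulated data with a lower dispersion than that of either fit, so that run gives no power for the 9 genes.

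Named are all 9 genes, members of 4 related lists (other epicardial genes, uroplakins, keratins and T-box genes) that were called or stood out in Kmo_AngII replicate 3 (up to 5 a list), and the 10 genes of highest correlation over 9 and over 8 libraries. Genes of the other cell type lists were named after their values were seen. Alternatives were DESeq2 1.42.0 size factors and Wald test, limma 3.58.1 voom, library size scaling, 2 other filters, the groups compared alone, the other grouping as a covariate and leaving out each library. Leaving out the 2 libraries with lung genes, the interaction test and the bounds for genes at 0 were added after the data were seen.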

Additional observations from a re-analysis of the deposited data

How the results depend on the processing

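Counts of calls, and of members highest in Kmo_AngII replicate 3, were recomputed. Under other settings they were within 1.5 times of the reported count in 72 cases and outside it in 11. On leaving out single libraries the cases were 67 and 17. A count of 0 in each was taken as within. None of the 9 genes was called in any setting for AngII minus Ctrl, Kmo_AngII minus AngII or Kmo_AngII minus Ctrl, so these cases do not measure stability there. No paired analysis was possible because the replicate numbers were given in sample order and no label pairs samples across groups. Under library size scaling the median log2 difference of all genes was 0.67 for AngII minus Ctrl, -0.29 for Kmo_AngII minus AngII, 0.37 for Kmo_AngII minus Ctrl and -0.32 for WA minus WC, where TMM scaling gave 0.02, 0.03, 0.05 and -0.01. The filter of at least 1 CPM in 3 libraries kept 5 of the 9 genes with all libraries and 2 in the WA and WC fit, so that the others have no value there. The cause of a change was not tested. Depth limits Upk1b, Lrrn4, Krt8 and Krt18, which had under 50 counts in every library but Kmo_AngII replicate 3.

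For genes called, AngII minus Ctrl gave 2 with DESeq2 and 0 to 1 on leaving out single libraries. Kmo_AngII minus AngII gave 3 with DESeq2 and 0 to 1. Kmo_AngII minus Ctrl gave 9 with DESeq2, 1 with only the groups compared and 0 to 1 on leaving out libraries. WA minus WC in 6 libraries gave 232 with library size scaling, 856 without the 2 libraries with lung genes, where all 6 gave 2409; leaving out AngII replicate 2 gave the lowest count, 459, and leaving out AngII replicate 3 the highest, 2980. Without Ctrl replicates 1, 2 and 3 it gave 1020, 1270 and 524. In 9 libraries it gave 11 with library size scaling, 5 with no filter, 505 with DESeq2 and 0 to 1576 (without Kmo_AngII replicate 1). Members called in 6 libraries were 0 with library size scaling and without the lung libraries, and 0 to 1 on leaving out libraries; in 9 libraries Wt1 was called without Kmo_AngII replicate 1 (-1.11, edgeR adjusted p = 0.0347), a range of 0 to 1.

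For AngII minus Ctrl, all signs that changed belong to values with no call. Without the lung libraries Wt1 was -0.031, Upk3b 0.44, Upk1b 0.21, Msln 0.59, Lrrn4 0.51, Tbx18 -0.28, Krt8 0.30 and Krt19 -1.66. With the title letters as a covariate Wt1 was -0.018, Msln 0.0051, Tbx18 -0.026 and Krt19 -0.70. With library size scaling Msln was 0.53 and Krt18 0.29, and with limma-voom Upk1b was 0.049 and Msln 0.24. Leaving out single libraries gave -1.36 to 0.30 for Upk3b, -1.46 to 0.38 for Upk1b, -0.66 to 1.15 for Msln, -1.90 to 0.34 for Lrrn4, -0.17 to 0.28 for Tbx18 and -1.69 to 1.72 for Krt19.

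For Kmo_AngII minus AngII the lowest values came without Kmo_AngII replicate 3. The ranges were -2.85 to 4.08 for Upk3b, -6.63 to 4.53 for Upk1b, -2.57 to 3.75 for Msln, -2.81 to 4.50 for Lrrn4, -0.19 to 0.51 for Tbx18, -5.87 to 4.59 for Krt8, -0.18 to 2.84 for Krt18 and -3.13 to 3.45 for Krt19. With limma-voom Upk3b was -0.53, Upk1b -1.80, Msln -0.56, Lrrn4 -0.59, Krt8 -0.28 and Krt19 -0.32, and with library size scaling Tbx18 was -0.14. For Kmo_AngII minus Ctrl the ranges were -0.73 to 0.19 for Wt1, -3.5 to 3.68 for Upk3b, -7.53 to 4.32 for Upk1b, -2.67 to 4.32 for Msln, -3.83 to 3.97 for Lrrn4, -0.15 to 0.57 for Tbx18, -6.95 to 3.70 for Krt8, -0.52 to 2.50 for Krt18 and -2.31 to 2.65 for Krt19. With limma-voom Upk3b was -1.09, Upk1b -1.75, Msln -0.32, Lrrn4 -0.71 and Krt8 -2.32.

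For WA minus WC in 6 libraries the ranges were -0.37 to 1.46 for Upk1b, -0.92 to 0.82 for Msln and -0.36 to 0.026 for Krt18. Without the lung libraries Upk1b was -0.21 and Msln -0.32, and Msln was -0.21 with library size scaling and -0.13 with limma-voom. In 9 libraries the ranges were -0.34 to 1.44, -0.93 to 0.81 and -0.39 to 0.014 for the same genes in that order. There Upk1b was -0.16 and Msln -0.30 without the lung libraries, and Msln was -0.21 with library size scaling and -0.15 with limma-voom. The gap of Tbx18 in Kmo_AngII replicate 3 was -0.18 with library size scaling, and those of Wt1, Msln and Krt19 were -0.94, 3.24 and 0.29 there.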

Other observations

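Wt1os, the antisense neighbour of Wt1, whose gene model does not overlap that of Wt1, had 3, 4 and 35 counts in Kmo_AngII replicates 1 to 3, 41, 20 and 12 counts in AngII and 18, 0 and 25 counts in Ctrl. Lung genes were unequal in Kmo_AngII replicate 3. Scgb1a1, the secretory protein of airway club cells, had 77 counts there, Ager, a receptor of alveolar type I cells, 64 and Sftpc 4. For Scgb1a1 and Sftpc, AngII replicate 1 had 206 and 254 and Ctrl replicate 3 had 253 and 242. Aldh1a2, which makes retinoic acid in the epicardium, had 15.1 CPM in Kmo_AngII replicate 3 and 1.27 to 4.74 CPM in the other 8 libraries, and Rspo1, a Wnt signal enhancer, had 5.05 CPM against 0.122 to 1.47 CPM. Bmp10, a growth factor of atrial muscle that was not among the genes tested, had 2094 counts in Kmo_AngII replicate 3 (41.3 CPM) and at most 0.0717 CPM elsewhere. All of these but Wt1os were chosen after their values were seen.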
